A study of Mus musculus with 30 samples.

Results

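The genes described here encode the proteins of the mitochondrial ribosome, and they were measured in hearts of mice labelled as lacking both REV-ERB receptors in cardiomyocytes. They were chosen by name alone: every row of the deposited expression table whose symbol starts with Mrpl or Mrps followed by a digit. The rule found 80 of 13575 rows. Of these, 76 are genes, 47 of the large subunit by symbol (Mrpl) and 29 of the small subunit (Mrps), and 4 are pseudogene rows that are given apart. All 76 genes passed the filter on low values. Another 2 protein-coding genes that RefSeq now names Mrpl57 and Mrpl58 stand in the table under the older symbols Mrp63 and Ict1, and they are described with the related genes.

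The RNA came from 6 heart libraries of mice aged 2 months, taken at ZT10 (10 hours after lights on) with the atria trimmed away. The 3 libraries labelled CM-RevDKO come from mice with floxed alleles of both receptor genes, Nr1d1 (Rev-erba) and Nr1d2 (Rev-erbb), and a Cre transgene driven by the cardiomyocyte promoter of alpha myosin heavy chain (aMHC). The 3 control libraries come from mice labelled as floxed, so both groups carry the floxed alleles. Should the control mice carry no Cre, Cre and receptor loss cannot be told apart as sources of a difference. No label says that each replicate is its own animal, so the p-values cover only the variation among these libraries, which may be technical. The remaining 24 of the 30 samples of the series (ChIP, Cut&Run and controls for them) were not analysed here.

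The mitochondrial ribosome translates the few messenger RNAs that mitochondrial DNA encodes, all for subunits of the respiratory chain and ATP synthase. Its 2 ribosomal RNAs, mt-Rnr1 in the small and mt-Rnr2 in the large subunit, are transcribed in the organelle, while every protein of the particle is encoded in the nucleus, made in the cytosol and imported. Many of the proteins descend from bacterial ribosomal proteins and others have no bacterial counterpart. Heart muscle is rich in mitochondria, and inherited defects of mitochondrial translation in humans often present as cardiomyopathy. REV-ERBα and REV-ERBβ are nuclear receptors of the circadian clock that repress transcription.

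The values were read as FPKM, which scales mapped fragments to the length of the transcript and the size of the library. Sequencing depth is unknown. The summed values were 702390 to 712160 in the CM-RevDKO libraries and 678720 to 691210 in the controls, and mitochondrially encoded transcripts held 36.9% to 41.0% of them. Nr1d1 measured 55.6, 47.4 and 47.9 FPKM in the libraries labelled CM-RevDKO and 23.9, 22.6 and 15.0 FPKM in those labelled control, which is against the direction of the label (log2 fold change 1.28, adjusted p = 0.0124). Nr1d2 measured 28.8, 26.6 and 26.7 FPKM in the libraries labelled CM-RevDKO and 40.3, 30.6 and 36.3 FPKM in those labelled control (log2 fold change -0.36, adjusted p = 0.175). Values over a whole gene include exons outside a deleted part and RNA of heart cells without Cre, so they do not check the deletion. Arntl, a clock gene that the REV-ERB receptors repress, was higher in the libraries labelled CM-RevDKO (log2 fold change 3.56, adjusted p = 1.7e-05). Every direction given here rests on the labels. The cardiomyocyte marker list was at a summed 25703 to 28909 FPKM in the CM-RevDKO libraries and 25623 to 27821 FPKM in the controls, as fits heart tissue in both. Members of that list moved both ways beneath the sum. In 3 of 8 (37.5%) all CM-RevDKO values lay above the controls and in 3 (37.5%) below, beside 12.6% and 10.5% of all genes. An unadjusted p under 0.05 was found for 5 (62.5%, where 16.6% of all genes had one). Mybpc3, a sarcomere protein gene, passed the test as higher (log2 fold change 0.65, adjusted p = 0.0469), while Pln was at -0.49 (adjusted p = 0.0598). These are bulk libraries, in which fewer cells of a type and less RNA per cell cannot be told apart.

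In some abundant transcripts, 2 of the 3 CM-RevDKO libraries, replicates 1 and 2, differed from the other 4. The feature mmu-mir-689-2 was at 3683, 1813 and 42294 FPKM in the CM-RevDKO libraries and at 28474, 33903 and 25204 FPKM in the controls. mt-Atp8 was at 18989, 19303 and 9769 FPKM in the CM-RevDKO libraries and at 8032, 9148 and 9375 FPKM in the controls. Replicates 1 and 2 are therefore low in the first transcript and high in the second, while CM-RevDKO replicate 3 lies near the controls in both. Some other abundant transcripts of mitochondrial DNA divided the libraries like mt-Atp8. mt-Cytb was at 34505, 32172 and 25220 FPKM in the CM-RevDKO libraries and at 22900, 24876 and 25494 FPKM in the controls. mt-Nd3 was at 7602, 8796 and 5755 FPKM in the CM-RevDKO libraries and at 5008, 5707 and 6088 FPKM in the controls. Tnnt2 and mt-Rnr2, also abundant, did not divide the libraries this way. Tnnt2 was at 6391, 6535 and 5969 FPKM in the CM-RevDKO libraries and at 4793, 5095 and 4769 FPKM in the controls. mt-Rnr2 was at 3573, 2814 and 3624 FPKM and at 4974, 4532 and 4328 FPKM. Because of mmu-mir-689-2 and mt-Atp8, the main counts are also given for CM-RevDKO replicate 3 alone against the controls. In that fit the lone library is assumed to vary like the controls. The counts with CM-RevDKO replicate 1 and control replicate 2 left out, a setting taken from earlier results, stand beside them; that setting keeps CM-RevDKO replicate 2.

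Few mitochondrial ribosomal protein genes passed the test for a difference between the groups. By limma on log2(FPKM + 1), 2 of the 76 genes (2.63%) were higher in the CM-RevDKO libraries at an adjusted p under 0.05 and 0 were lower. Over all 13256 genes tested 2.5% passed, 1.26% higher and 1.24% lower. The 2 genes are Mrpl16 of the large subunit and Mrps23 of the small. The share of calls is thus close to the background. At an unadjusted p under 0.05 there were 17 members (22.4%), where 16.6% of all genes were. Neither call held in every setting. Of the 6 fits that each leave out a library, 1 kept Mrpl16 and 1 kept Mrps23. In their place 1 fit called Mrps34 as lower and 1 called Mrpl53 as higher, and the others called no member. Over all genes tested these 6 fits called 120 to 322, against 332 in the main fit, so calls were lost across the whole table. With CM-RevDKO replicate 3 alone, limma called 0 members, with 6 at an unadjusted p under 0.05 and 21 genes called in all. With CM-RevDKO replicate 1 and control replicate 2 left out it called 0, with 11 at an unadjusted p under 0.05 and 105 genes called in all.

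The fold changes of the members were small and mostly above 0. The median log2 fold change was 0.11 over the 76 members and 0.02 over all genes tested. It was positive for 57 members (75.0%, where 53.7% of all genes were positive), a number that fell to 43 when the libraries were scaled without the mitochondrially encoded genes. With CM-RevDKO replicate 1 and control replicate 2 left out it was 53, it was 52 for CM-RevDKO replicate 3 alone, and it was 48 without control replicate 1. In the scaling without mitochondrially encoded genes the members' median was 0.04 and that of all genes -0.04. In 23 members (30.3%) all 3 CM-RevDKO values lay above all 3 control values, and in 3 members (3.95%) they lay below them. Over all genes tested those shares were 12.6% and 10.5%. The 95% interval of the fold change lay within 1.5-fold in either direction for 58 members (76.3%, where the share of all genes was 61.5%) and within 2-fold for 73. For most members the main fit thus bounded the difference between these libraries to under 1.5-fold on the log2(FPKM + 1) scale.

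**Figure D1:**
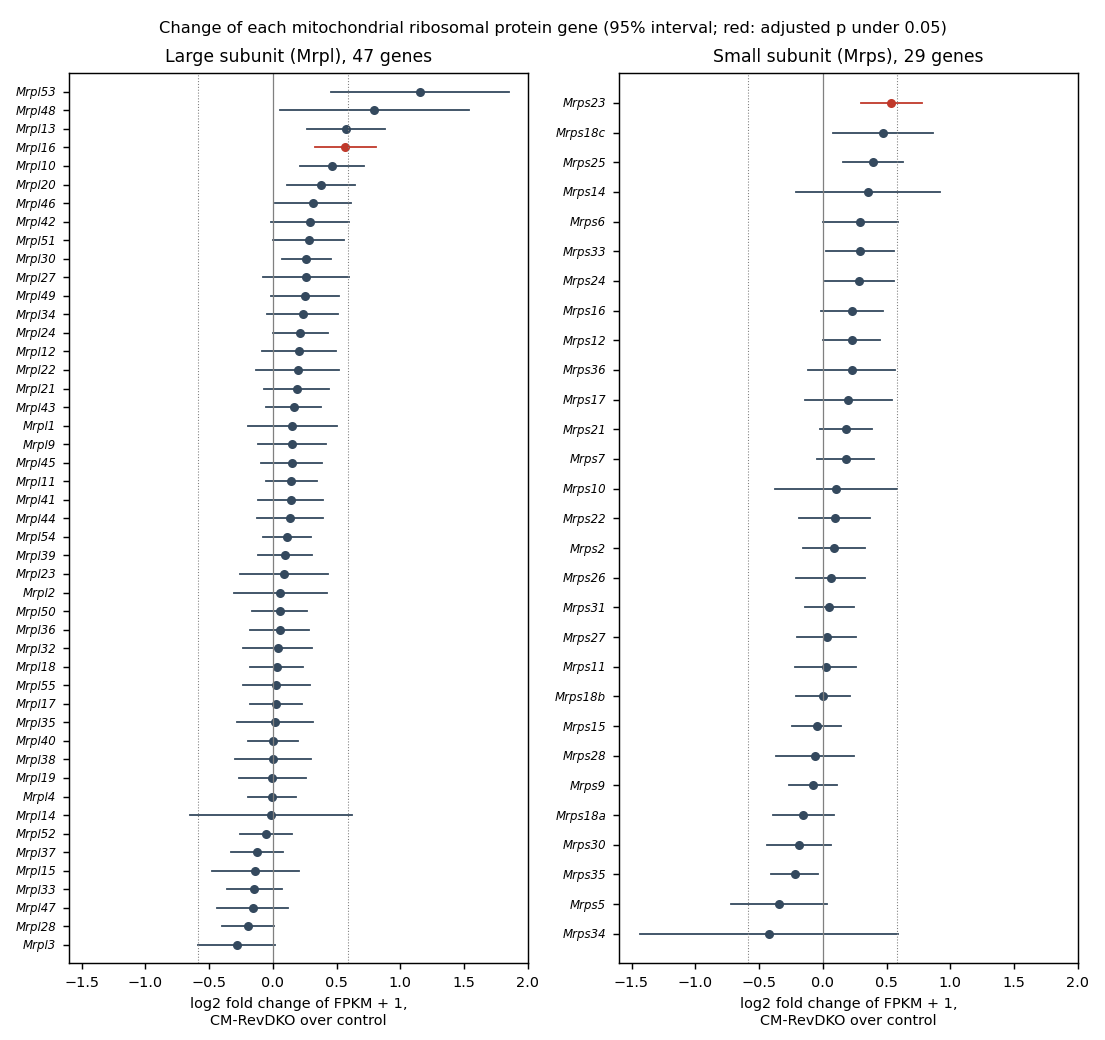
Log2 fold changes (CM-RevDKO over control, on the log2(FPKM + 1) scale) of the Mrpl and Mrps genes with 95% intervals; each point is a gene, the solid line marks 0 and the dotted lines mark 1.5-fold in either direction. Most points lie between -0.5 and 0.5, and the 2 genes past the test, Mrpl16 and Mrps23, are at 0.57 and 0.54.

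The medians of both subunits were small and positive, and no test compares them. For the 47 Mrpl genes the median log2 fold change was 0.14, with 36 positive. Of them 10 (21.3%) were at an unadjusted p under 0.05 and 1 (2.13%) was past the adjusted test. The 29 Mrps genes had a median of 0.10, with 21 positive, 7 (24.1%) at an unadjusted p under 0.05 and 1 (3.45%) past the test. Over all genes tested those shares were 16.6% and 2.5%, so the calls of both subunits were near the background. Symbol and place in the particle do not always match: Mrps30 and Mrps18a encode proteins that structures place in the large subunit, and Mrps36 is now known as KGD4, a component of the 2-oxoglutarate dehydrogenase complex. Sorted by known place, the medians were 0.11 over 49 large and 0.10 over 26 small subunit genes. The 48 members with a bacterial homologue had a median of 0.10 and the 27 without had one of 0.11. With each library left out in turn, the large subunit's median ranged from 0.09 to 0.14 and the small subunit's from 0.05 to 0.13. The small subunit's median was 0.05 without CM-RevDKO replicate 3, where the large subunit's was 0.14, and the large subunit's was 0.0893 without control replicate 1, where the small subunit's was 0.10. Which subunit had the higher median thus depended on the library left out.

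Summed over genes, the large subunit reached 2506, 2431 and 2287 FPKM in the CM-RevDKO libraries and 2013, 2182 and 2271 FPKM in the controls. The means were 2408 ± 111 and 2155 ± 131 FPKM (SD, n = 3 each). The small subunit summed to 1230, 1147 and 1070 FPKM in the CM-RevDKO libraries and to 1011, 1068 and 1044 FPKM in the controls, with means of 1149 ± 80.1 and 1041 ± 28.8 FPKM. In both sums the groups did not overlap, but CM-RevDKO replicate 3 exceeded the highest control only narrowly. The summed values of all genes were also higher in the CM-RevDKO libraries. As a share of them, the 76 members held 0.527%, 0.509% and 0.471% in the CM-RevDKO libraries. In the controls they held 0.445%, 0.472% and 0.480%, so the groups overlapped in this share. The ratio of the subunits' median levels was 1.43, 1.36 and 1.30 in the CM-RevDKO libraries and 1.33, 1.44 and 1.34 in the controls. The groups overlapped in this ratio.

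The position of the members differed among the CM-RevDKO libraries. The median difference of the large subunit genes from their control mean was 0.20, 0.11 and 0.08 in the CM-RevDKO libraries and -0.08, 0.01 and 0.07 in the controls, on the log2 scale. For the small subunit genes it was 0.13, 0.09 and 0.07 in the CM-RevDKO libraries and -0.08, 0.03 and 0.03 in the controls. CM-RevDKO replicate 1 was the highest of its group in 41 of the 76 members (53.9%, where the share of all genes was 45.4%). Among the 23 members that lay above all controls it was the highest in 16 (69.6%, where the share of all such genes was 53.3%). Control replicate 1 was the lowest of its group in 51 members (67.1%, where the share of all genes was 27.4%). These 2 libraries were the farthest apart in both subunits' medians.

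CM-RevDKO replicate 1 was also the highest library for complex I and the cytosolic ribosome, but not for every abundant set: in the mitochondrially encoded and the cardiomyocyte lists it was the lowest, with median differences of -0.04 and -0.22. The 37 genes of complex I had medians of 0.30, 0.22 and 0.11 in the CM-RevDKO libraries and -0.06, 0.04 and 0.02 in the controls. The 77 proteins of the cytosolic ribosome had 0.25, 0.23 and 0.12 in the CM-RevDKO libraries and -0.01, -0.05 and 0.06 in the controls. Over all genes tested the medians were 0.06, -0.01 and 0.01 in the CM-RevDKO libraries and 0.03, 0.00 and -0.03 in the controls. The median log2 fold changes were 0.19 for complex I, with 1 gene higher (2.7%, Ndufv3), and 0.20 for the cytosolic ribosome, with 2 genes higher (2.6%, Rpl38 and Rpl3), names given after their values were seen. Both medians were above the 0.11 of the mitochondrial ribosome, and no test compares the lists.

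**Figure D2:**
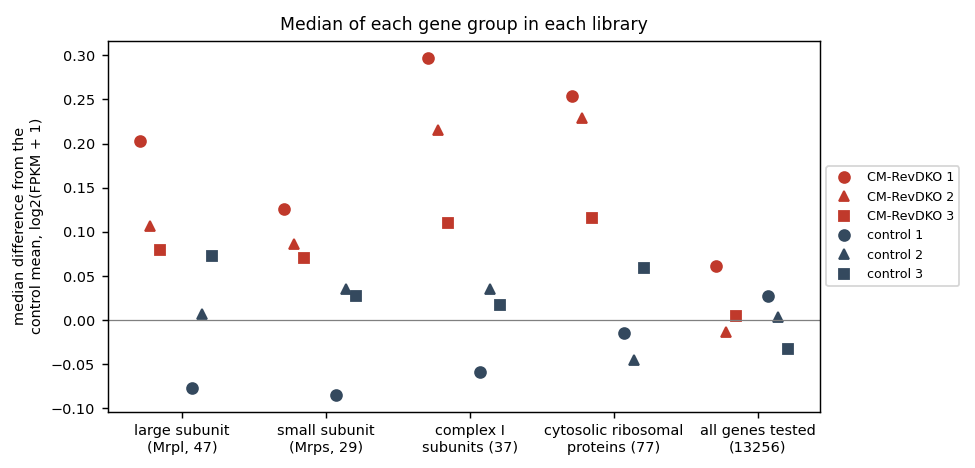
Median difference of the genes of each list from their control means (log2(FPKM + 1) scale), 1 point per library, with CM-RevDKO libraries left of controls. CM-RevDKO replicate 1 is the highest library for the large subunit (0.20), the small subunit (0.13), complex I (0.30) and the cytosolic ribosome (0.25).

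Among markers of other cells, the atrial and smooth muscle sums did not overlap between the groups. The atrial list (Myl7, Myl4, Sln, Nppa, Bmp10, Stard10 and Dbh) summed to 774 to 1510 FPKM in the CM-RevDKO libraries and 217 to 293 FPKM in the controls. Nppa was its largest part, at 813, 589 and 630 FPKM in the CM-RevDKO libraries and 164, 134 and 143 FPKM in the controls. In the atrial list 1 of 6 tested genes passed, Nppa (16.7%, where 2.5% of all genes passed). In 4 of the 6 (66.7%, beside 12.6% of all genes) all CM-RevDKO values lay above the controls. Bmp10 was listed at 0 in every library but CM-RevDKO replicate 1. The adipocyte list, of which 5 of 7 genes were in the table, summed to 83.9, 46.97 and 11.7 FPKM in the CM-RevDKO libraries and to 14.5, 10.4 and 9.37 FPKM in the controls. Erythroid markers summed to 8703 to 11003 FPKM in the CM-RevDKO libraries and 5010 to 9005 FPKM in the controls, and smooth muscle markers to 138 to 172 and 121 to 128 FPKM. Of the 5 smooth muscle genes 4 had a positive log2 fold change. Smtn went the other way (-0.22), at 42.3, 55.2 and 64.9 FPKM in the CM-RevDKO libraries and 55.4, 66.7 and 65.9 FPKM in the controls. The adipocyte and erythroid sums overlapped between the groups, as did those of fibroblasts, endothelial cells, macrophages and lymphocytes. All 5 adipocyte and all 5 erythroid genes still had positive log2 fold changes, with medians of 1.16 and 0.50. In 2 adipocyte genes (40.0%, Retn and Adipoq, beside 12.6% of all genes) and in 0 erythroid genes all CM-RevDKO values lay above the controls. Outside the atrial list no gene of these lists passed the test. The part of these differences in the members' values was not tested.

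Levels of the members spanned an 84.5-fold range. The highest were Mrpl42, a protein of the large subunit with no bacterial counterpart, at a mean of 384 ± 58.4 FPKM in the CM-RevDKO libraries and 312 ± 26.1 FPKM in the controls, and Mrps21 (the homologue of bacterial S21) at 245 ± 19.2 and 215 ± 4.40 FPKM. Mrpl30 and Mrpl33 followed in the large subunit, and Mrps36 and Mrps16 in the small. Neither Mrpl42 (log2 fold change 0.29, adjusted p = 0.320) nor Mrps21 (0.18, 0.356) passed the test. Mrpl33, homologous to bacterial L33, stood at 115 ± 7.66 FPKM in the CM-RevDKO libraries and 128 ± 7.91 FPKM in the controls, with a log2 fold change of -0.15 (adjusted p = 0.485). Mrps16, homologous to bacterial S16, stood at 67.1 ± 4.02 and 57.1 ± 5.74 FPKM, with a log2 fold change of 0.23 (adjusted p = 0.322). Only 4 members averaged at least 100 FPKM in both groups.

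At the low end, Mrpl19 averaged 4.11 ± 0.40 FPKM in the CM-RevDKO libraries and 4.13 ± 0.36 FPKM in the controls, with a log2 fold change of -0.00 (95% interval -0.27 to 0.26, adjusted p = 0.992). Mrpl47 averaged 6.45 ± 0.42 and 7.34 ± 1.01 FPKM (log2 fold change -0.16, adjusted p = 0.560), and Mrps2 9.81 ± 0.65 and 9.20 ± 0.83 FPKM (0.09, 0.734). These 3 proteins have bacterial homologues, L19, L29 and S2. A count of 7 members lay under 10 FPKM in both groups. The median level of the large subunit genes was 44.7, 39.4 and 36.9 FPKM in the CM-RevDKO libraries and 33.3, 39.9 and 36.0 FPKM in the controls. That of the small subunit genes was 31.4, 28.9 and 28.3 FPKM in the CM-RevDKO libraries and 24.9, 27.7 and 26.8 FPKM in the controls. The groups overlap in the large subunit and not in the small.

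**Figure D3:**
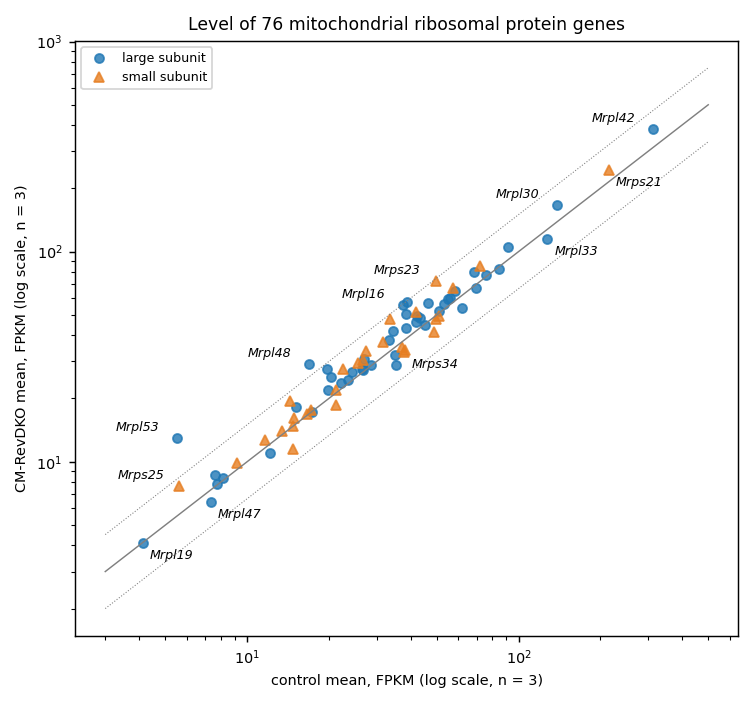
Mean level of each Mrpl and Mrps gene in the CM-RevDKO libraries against the controls (FPKM, both axes logarithmic), with large and small subunit genes marked apart a solid line of equality and dotted lines at 1.5-fold in either direction. Most points lie near the line of equality, from Mrpl19 near 4.11 FPKM to Mrpl42 at 384 and 312 FPKM. Above the upper dotted line lie 2 genes, Mrpl53 (12.9 FPKM in CM-RevDKO, 5.53 in control) and Mrpl48 (29.2 and 16.9 FPKM).

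Mrpl16 is homologous to bacterial L16, which lies beside the peptidyl transferase centre and helps to place the incoming tRNA. It stood at 54.8, 55.6 and 56.9 FPKM in the CM-RevDKO libraries and at 34.6, 42.5 and 35.3 FPKM in the controls. The 3 CM-RevDKO values lie close together, and all are above the highest control. The means were 55.7 ± 1.06 and 37.5 ± 4.35 FPKM (SD, n = 3 each), a ratio of 1.49, with a log2 fold change of 0.57 (SE 0.10, 95% interval 0.33 to 0.81, adjusted p = 0.0375). The adjusted p ranged from 0.0353 to 0.134 over the 6 fits that each leave out a library, and it stayed under 0.05 only without control replicate 2.

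Mrps23 encodes a small subunit protein with no bacterial counterpart. It stood at 78.7, 71.8 and 66.2 FPKM in the CM-RevDKO libraries and at 45.4, 51.6 and 51.3 FPKM in the controls. Here too the groups do not overlap, with CM-RevDKO replicate 3 nearest to the controls. The means were 72.2 ± 6.27 and 49.4 ± 3.50 FPKM, a ratio of 1.46, with a log2 fold change of 0.54 (SE 0.10, 95% interval 0.30 to 0.77, adjusted p = 0.0419). The adjusted p ranged from 0.0463 to 0.146 with each library left out, and only the fit without CM-RevDKO replicate 3 kept it under 0.05. The gene overlaps Cuedc1, which was at 16.5, 16.4 and 16.2 FPKM in the CM-RevDKO libraries and 17.8, 16.5 and 15.9 FPKM in the controls (log2 fold change -0.03, adjusted p = 0.90). The use of strand in counting was not stated in the labels, so reads of an overlap cannot be told apart.

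Among the large subunit genes next in order of p, Mrpl13 (homologue of bacterial L13) stood at 59.6, 58.8 and 54.1 FPKM in the CM-RevDKO libraries and at 31.5, 41.8 and 42.7 FPKM in the controls. Its log2 fold change was 0.57, as large as that of Mrpl16, with a wider error (SE 0.13, adjusted p = 0.0757). Mrpl10, which anchors the stalk that carries Mrpl12, stood at 31.2, 24.5 and 27.5 FPKM in the CM-RevDKO libraries and at 19.7, 19.7 and 19.8 FPKM in the controls (0.47, SE 0.11, adjusted p = 0.0769). The groups overlap in neither gene, and neither passed the test.

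Mrpl53, a large subunit protein with no bacterial counterpart, had the highest log2 fold change of the members. It stood at 16.2, 12.5 and 10.1 FPKM in the CM-RevDKO libraries and at 3.28, 4.61 and 8.71 FPKM in the controls (log2 fold change 1.16, SE 0.30, adjusted p = 0.105). CM-RevDKO replicate 3 and control replicate 3 lie near each other, and without control replicate 3 the gene passed the test (adjusted p = 0.0436). It overlaps Ccdc142, which stood at 11.9, 11.9 and 11.3 FPKM in the CM-RevDKO libraries and at 8.43, 9.51 and 8.84 FPKM in the controls (log2 fold change 0.36, adjusted p = 0.102). Both genes of this overlap were thus higher without overlap between the groups, and neither passed the test.

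Mrpl20, homologous to bacterial L20, stood at 54.1, 46.8 and 50.2 FPKM in the CM-RevDKO libraries and at 34.0, 43.3 and 38.7 FPKM in the controls (log2 fold change 0.38, adjusted p = 0.153). Mrpl30, homologous to bacterial L30, stood at 160, 172 and 167 FPKM in the CM-RevDKO libraries and at 132, 141 and 143 FPKM in the controls (0.26, adjusted p = 0.163). The groups of both are apart by less than 1.5-fold in their means.

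In the small subunit, Mrps25, which has no bacterial counterpart, stood at 7.69, 7.90 and 7.42 FPKM in the CM-RevDKO libraries and at 6.16, 5.54 and 5.13 FPKM in the controls (log2 fold change 0.39, adjusted p = 0.10). It overlaps Nr2c2, which had a log2 fold change of -0.30 (adjusted p = 0.258). Mrps18c, homologous to bacterial S18, stood at 61.1, 44.5 and 37.7 FPKM in the CM-RevDKO libraries and at 33.6, 35.2 and 31.9 FPKM in the controls (0.47, SE 0.17, adjusted p = 0.220). Its CM-RevDKO values are spread widely, with replicate 1 far above replicate 3. Mrps33 and Mrps24, the second a homologue of bacterial S3, had log2 fold changes of 0.29 and 0.29 (adjusted p = 0.258 and 0.274). The groups of these 4 genes do not overlap, and none passed the test.

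**Figure D4:**
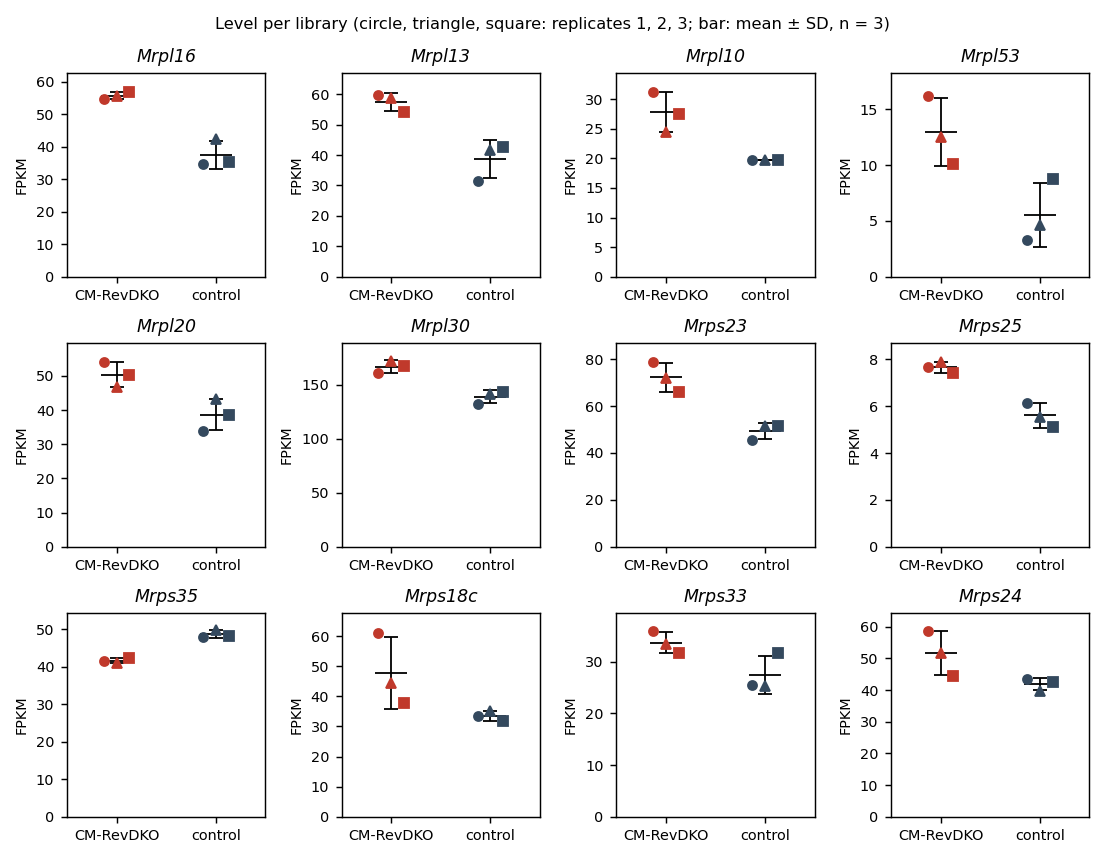
FPKM per library of the members with the smallest p-values in each subunit, CM-RevDKO left of control; symbols mark replicates 1, 2 and 3, and bars give the mean ± SD (n = 3). For Mrpl16 the CM-RevDKO values lie between 54.8 and 56.9 FPKM and the control values between 34.6 and 42.5 FPKM.

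In 3 members every CM-RevDKO value was below every control value. Mrps35, a small subunit protein with no bacterial counterpart, stood at 41.5, 40.9 and 42.4 FPKM in the CM-RevDKO libraries and at 47.9, 49.8 and 48.2 FPKM in the controls (log2 fold change -0.22, SE 0.08, adjusted p = 0.217). Mrpl3, the homologue of bacterial L3, whose human counterpart is mutated in an infantile cardiomyopathy, stood at 24.9, 31.3 and 30.3 FPKM in the CM-RevDKO libraries and at 33.0, 40.5 and 32.5 FPKM in the controls (-0.28, SE 0.13, adjusted p = 0.330). Mrpl28 stood at 50.7, 52.9 and 58.2 FPKM in the CM-RevDKO libraries and at 59.9, 63.0 and 62.5 FPKM in the controls (-0.20, adjusted p = 0.327). None of the 3 passed the test, and Mrpl28 was named for its lack of overlap after its values were seen.

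Other members of known medical or regulatory interest showed no difference past the test. Mrpl12, the mobile stalk protein that in human cells also binds the mitochondrial RNA polymerase, stood at 96.4, 105 and 116 FPKM in the CM-RevDKO libraries and at 78.9, 92.9 and 104 FPKM in the controls (log2 fold change 0.21, adjusted p = 0.458). Its groups overlap. The human counterparts of Mrpl44 and Mrps22 are mutated in mitochondrial disease with cardiomyopathy, and their log2 fold changes were 0.14 (adjusted p = 0.593) and 0.10 (adjusted p = 0.748). Mrpl41 was at 0.14 (adjusted p = 0.572). The genes whose symbols misname their place were at -0.19 for Mrps30 (adjusted p = 0.432), -0.15 for Mrps18a (adjusted p = 0.502) and 0.23 for Mrps36 (adjusted p = 0.490).

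A few members varied widely within a group, and 6 had a within-group SD above 0.3 on the log2 scale; the median over members was 0.13, beside 0.17 over all genes. They were chosen after their values were seen. Mrps34, which has no bacterial counterpart, stood at 19.3, 62.9 and 17.5 FPKM in the CM-RevDKO libraries and at 32.9, 38.6 and 42.0 FPKM in the controls. Its CM-RevDKO replicate 2 is far above both groups' other values. The log2 fold change was -0.42 (95% interval -1.44 to 0.59); without that library it was -0.996 and passed the test (adjusted p = 0.0315).

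Mrpl48 stood at 19.8, 32.5 and 35.4 FPKM in the CM-RevDKO libraries and at 12.6, 12.3 and 25.9 FPKM in the controls (log2 fold change 0.79, SE 0.32, adjusted p = 0.269). It overlaps Rab6a and Cox20b and has a pseudogene row. Mrpl14, homologous to bacterial L14, stood at 79.0, 108 and 61.6 FPKM in the CM-RevDKO libraries and at 55.8, 104 and 93.6 FPKM in the controls, and Mrps14, homologous to bacterial S14, at 26.7, 18.4 and 12.9 FPKM and at 12.2, 14.3 and 16.8 FPKM. The groups overlap in each of these genes, and the depth behind the values is unknown.

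**Figure D5:**
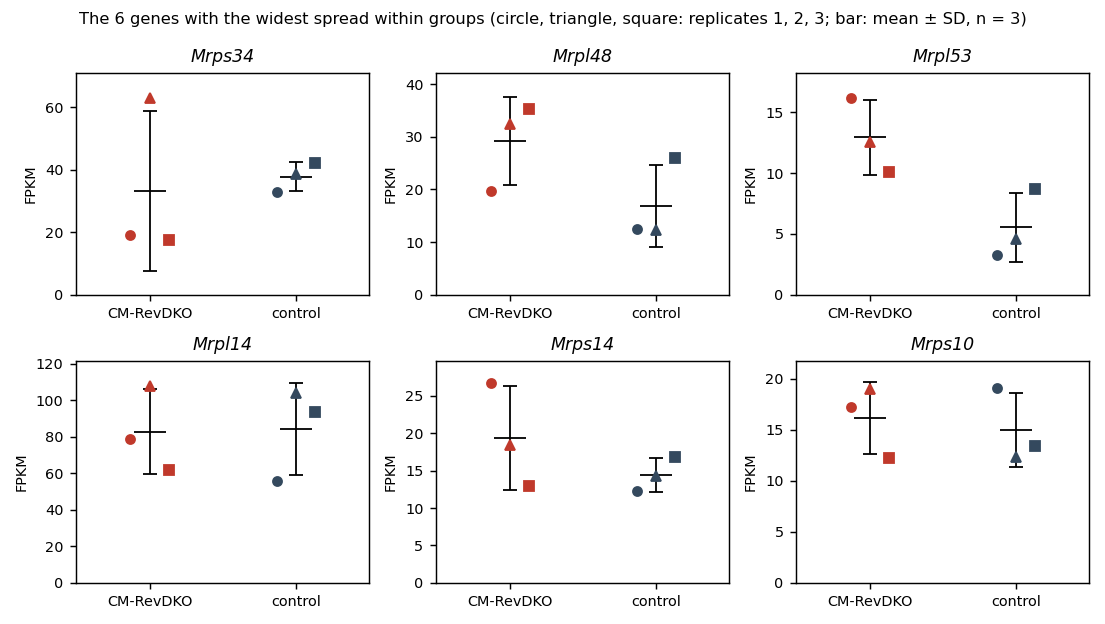
FPKM per library of the 6 members with the widest spread within groups, CM-RevDKO left of control; symbols mark replicates 1, 2 and 3, and bars give the mean ± SD (n = 3). CM-RevDKO replicate 2 of Mrps34 is at 62.9 FPKM, while replicates 1 and 3 are at 19.3 and 17.5 FPKM.

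The members lie on 17 chromosomes, and 24 of the 76 overlap another RefSeq gene. RefSeq promoter windows of GRCm38.p6, from 250 bases before to 50 bases after a transcription start, were found for 67 members (73 windows). The letters CCGGAAG, bound by ETS factors such as GABP, stood on either strand in 24 of the 73 windows (32.9%), beside 16.7% of the 11063 windows of tested genes and 8.86% of all 32851 windows. The letters CGCATGCG, bound by NRF1, stood in 7 windows (9.59%), beside 3.78% and 1.87%. Both factors are known activators of nuclear genes for mitochondrial proteins. ATGGCGG, bound by YY1 but also the letters of a start codon followed by alanine, stood in 13 windows (17.8%), beside 7.75% and 4.05%. These shares were the ones most above those of tested genes.

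Letters bound by factors of the clock stood at shares near those of tested genes. AGGTCA, the core sequence of REV-ERB and ROR elements and of many other nuclear receptors, stood in 10 windows (13.7%), beside 12.4% of the windows of tested genes and 16.3% of all windows. The letters TTANGTAA (D-box) stood in 0 windows, beside 1.44% and 2.32%, and CACGTG (E-box) in 7 (9.59%), beside 9.84% and 7.15%. CCAAT, bound by NF-Y, stood in 30 windows (41.1%), beside 37.3% and 37.4%. Members with CCGGAAG had a median log2 fold change of 0.18 and the rest of those with a window had one of 0.14, while for the other motifs found the members with the letters had the lower median, for example 0.03 and 0.16 for ATGGCGG and 0.06 and 0.18 for CCAAT. A match is a description of the letters and not a binding site, and no match says only that the letters are absent from the window.

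The promoters of both genes past the test are shown with those of 4 others that hold the ETS or NRF1 letters or whose values are given above. Each line holds the 150 bases before the start used in the RefSeq promoter table, 5′ to 3′ on the gene's strand, with CCGGAAG (or its reverse complement CTTCCGG) and CGCATGCG in capitals. All are from RefSeq, GRCm38.p6: Mrpl16 at chr19:11770265-11770414 (plus strand), Mrps23 at chr11:88204238-88204387 (plus), Mrpl22 at chr11:58171514-58171663 (plus), Mrpl3 at chr9:105053118-105053267 (plus), Mrpl10 at chr11:97041432-97041581 (plus) and Mrps22 at chr9:98601680-98601829 (minus). The starts of Mrps23 and Mrpl22 are not the outermost ends of their annotated spans, which begin at 88194106 and 58170043.
Mrpl16: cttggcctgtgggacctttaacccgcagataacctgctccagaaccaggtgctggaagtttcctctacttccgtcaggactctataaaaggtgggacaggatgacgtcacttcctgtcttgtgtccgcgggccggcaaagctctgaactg
Mrps23: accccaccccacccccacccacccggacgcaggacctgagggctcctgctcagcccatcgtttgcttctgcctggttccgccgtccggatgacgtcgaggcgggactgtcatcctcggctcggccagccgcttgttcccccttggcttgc
Mrpl22: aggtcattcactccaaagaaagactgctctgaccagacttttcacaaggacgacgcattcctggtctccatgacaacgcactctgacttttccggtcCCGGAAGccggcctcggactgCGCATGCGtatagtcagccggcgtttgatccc
Mrpl3: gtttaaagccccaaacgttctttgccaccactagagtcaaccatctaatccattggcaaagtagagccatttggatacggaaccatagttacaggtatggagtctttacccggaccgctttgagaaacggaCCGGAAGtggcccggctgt
Mrpl10: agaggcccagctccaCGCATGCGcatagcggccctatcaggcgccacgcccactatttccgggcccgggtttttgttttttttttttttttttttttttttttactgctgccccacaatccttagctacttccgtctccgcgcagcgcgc
Mrps22: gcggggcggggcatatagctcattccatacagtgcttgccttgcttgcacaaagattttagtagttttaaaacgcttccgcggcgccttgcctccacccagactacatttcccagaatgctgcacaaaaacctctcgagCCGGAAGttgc

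Mrpl16 and Mrps23 hold none of the capital letters in these 150 bases, while Mrps23 holds CCGGAAG elsewhere in its 300-base window. Mrpl22 holds an ETS match starting at position -53 from the start and an NRF1 match closer to it. Mrpl3 holds an ETS match at -19, Mrps22 at -11, and Mrpl10 holds an NRF1 match at -135. Genes with such letters are found on both sides of 0, Mrpl10 at a log2 fold change of 0.47 and Mrpl3 at -0.28.

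Many members share a promoter region with a gene on the opposite strand. A divergent neighbour with its start within 1000 bases was found for 25 of the 67 members with a window (37.3%), beside 19.2% of 8618 tested genes. Among the 24 pairs, 21 had both genes tested, of which 9 had log2 fold changes of the same sign. The test was passed by 0 neighbours, beside 2.5% of all genes tested, a share at which so few genes would give few or no calls. Mrpl46 and Mrps11, a large and a small subunit gene, start 42 bases apart, and their log2 fold changes were 0.31 (adjusted p = 0.277) and 0.02 (adjusted p = 0.947). Mrps12, the homologue of bacterial S12 in the decoding centre, starts 147 bases from Sars2, the mitochondrial seryl-tRNA synthetase gene, and their log2 fold changes were 0.23 (adjusted p = 0.295) and -0.24 (adjusted p = 0.392). Mrpl49 starts 192 bases from Fau, which encodes a protein of the cytosolic ribosome, with log2 fold changes of 0.25 (adjusted p = 0.330) and 0.38 (adjusted p = 0.120).

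The other genes of the pathway gave no call in any of 7 lists, where 2.5% of all genes tested were called. The lists hold 7 to 24 tested genes each, so at that share few or no calls would be found in any of them. The 7 mitochondrial ribosome proteins with other names had a median log2 fold change of -0.03. In it Mrp63 was at 16.8, 15.1 and 8.79 FPKM in the CM-RevDKO libraries and at 7.88, 9.32 and 10.6 FPKM in the controls (log2 fold change 0.47, adjusted p = 0.360). Ict1, a peptidyl-tRNA hydrolase built into the large subunit, was at 35.2, 14.1 and 15.3 FPKM in the CM-RevDKO libraries and at 15.5, 12.8 and 10.1 FPKM in the controls (0.61, adjusted p = 0.412). Both are highest in CM-RevDKO replicate 1, and their groups overlap.

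Assembly factors, 24 tested of 31 listed, had a median log2 fold change of 0.03. Beside 16.6% of all genes, 2 factors (8.33%) were at an unadjusted p under 0.05. These were Ftsj2, an rRNA methyltransferase (log2 fold change 0.37, adjusted p = 0.146), and Gtpbp5, an assembly GTPase (-0.34, adjusted p = 0.174). Translation factors, 15 of 16, had a median of 0.07 and 4 genes at an unadjusted p under 0.05 (26.7%, where 16.6% of all genes were). Of these, Taco1 and Mtif3 were higher, at log2 fold changes of 0.28 (adjusted p = 0.249) and 0.46 (adjusted p = 0.297). Lrpprc, which stabilises mitochondrial messenger RNAs, was at 25.7, 28.4 and 30.0 FPKM in the CM-RevDKO libraries and at 34.8, 34.6 and 40.9 FPKM in the controls (-0.38, adjusted p = 0.129), and Mtrf1l, a release factor, had a log2 fold change of -0.27 (adjusted p = 0.240). The mitochondrial tRNA synthetases, 22 of 24, had a median of -0.01.

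Genes of mitochondrial transcription and RNA processing, 9 of 11, had a median of -0.05, with Rexo2, an oligoribonuclease, at 0.34 (adjusted p = 0.139). The 15 mitochondrially encoded genes had a median of 0.00 and 5 at an unadjusted p under 0.05 (33.3%, where 16.6% of all genes were). Of these, mt-Atp8, mt-Nd4l, mt-Nd3 and mt-Cytb had positive log2 fold changes (0.79, 0.58, 0.38 and 0.32), and mt-Rnr2 was lower. None of the 5 passed the test. The groups overlapped in mt-Nd4l, mt-Nd3 and mt-Cytb, where only CM-RevDKO replicates 1 and 2 lay above all controls. mt-Nd4l was at 13180, 14519 and 8500.8 FPKM in the CM-RevDKO libraries and at 7935.8, 7241.5 and 8540.5 FPKM in the controls. In mt-Atp8, CM-RevDKO replicate 3 was at 9768.5 FPKM, near the highest control at 9374.8 FPKM. The large ribosomal RNA mt-Rnr2 stood at 3573, 2814 and 3624 FPKM in the CM-RevDKO libraries and at 4974, 4532 and 4328 FPKM in the controls (-0.47, SE 0.12, adjusted p = 0.104), so its groups do not overlap, and mt-Rnr1 was at -0.17 (adjusted p = 0.632).

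Known regulators of mitochondrial biogenesis, 12 genes, had a median of -0.13, with 4 positive. At an unadjusted p under 0.05 there were 2 (16.7%, where 16.6% of all genes were). Ppargc1b, a coactivator of NRF1 and ERR target genes, was at 6.55, 6.69 and 7.34 FPKM in the CM-RevDKO libraries and at 9.25, 8.32 and 9.75 FPKM in the controls (log2 fold change -0.36, adjusted p = 0.128). Ppargc1a, its relative, was at 7.73, 11.2 and 10.5 FPKM in the CM-RevDKO libraries and at 16.0, 12.9 and 14.5 FPKM in the controls (-0.53, adjusted p = 0.134). The groups of both do not overlap, and neither passed the test.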

How the data were processed

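The authors deposited 1 table with a value per gene for each of the 6 RNA libraries. The submitters' processing notes name HISAT2, StringTie and mm10, with no roles. Tool versions, annotation and strand use: not given in the sources used here. Deposited values were taken to be FPKM, a StringTie output; the file header names no unit and TPM is possible. Neither unit keeps the sequencing depth, so counting intervals are left out.

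The scale of all fold changes is log2(FPKM + 1), which understates the change of low genes. Those 13256 of 13575 genes whose mean reached 0.5 were fitted together with limma 3.58.1 in R 4.3.3 (lmFit, eBayes with an intensity trend, group only). P-values are two-sided and have a Benjamini-Hochberg adjustment over all genes tested, with a threshold of 0.05, and intervals are 95%. The procedure was tested on simulated data. The members, gene lists, motifs and settings were chosen with earlier results of these data known. Members named are those past the test, the 6 of each subunit with the smallest p, the 3 with the highest and the 2 with the lowest mean of each, and 8 of known role; from each pathway list, members past it or the 2 with the smallest p. Marker genes and genes outside this rule (shown for a lack of overlap, a wide spread, an overlapping gene or a shared promoter) were chosen after their values were seen. Symbols are those of the table; positions, overlaps and promoters come from RefSeq GRCm38.p6, which is mm10; all 76 members matched. Other settings tried were pseudocounts, filters, scalings, the trend, a replicate block and libraries left out.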

Additional observations from a re-analysis of the deposited data

How the results depend on the processing

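Under a pseudocount of 0.1, no filter, a minimum mean of 5, or libraries shifted to a common median, Mrpl16 and Mrps23 passed the test as reported. Scaled without mitochondrially encoded genes, 1 member passed (Mrpl16; small subunit 0, with a small subunit median of 0.0305). With quantile normalization 1 passed (Mrps23; large subunit 0). By limma 0 members of either subunit passed without the intensity trend (11 at an unadjusted p under 0.05), with the replicate block (13), without control replicate 2 and CM-RevDKO replicate 1 (11), or, chosen after seeing the data, in a fit of CM-RevDKO replicate 3 alone against the controls (6). Leaving out each library in turn gave 0 to 1 members past the test, and 0 to 1 in each subunit. Among them, 0 passed without CM-RevDKO replicate 1 (12 at an unadjusted p under 0.05) and without control replicate 1 (9). Over all genes the fits with 1 library left out called 120 to 322, and the fit without the intensity trend called 242, against 332 in the main fit. The medians were 0.09 to 0.14 for the large and 0.05 to 0.13 for the small subunit. The sign of the log2 fold change was not stable for Mrpl14 (-0.29 to 0.17), Mrpl19 (-0.0601 to 0.0528) and Mrps22 (-0.0199 to 0.16) over these fits. Without control replicate 2 and CM-RevDKO replicate 1, Mrpl14 was at 0.17 and Mrpl19 at 0.0492. With CM-RevDKO replicate 3 alone the log2 fold changes were 0.11 for Mrpl19, -0.14 for Mrps14 and -0.0343 for Mrps36, and 52 of 76 members were positive. The cause was not tested.

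The replicate numbers did not pair the libraries: deviations of same-numbered libraries correlated at -0.04, -0.06 and 0.09. The block moved the count over all genes to 115, against 332. Not every library correlated best with its own number. With 3 libraries a group and unknown depth, most members' differences between these libraries were bounded rather than measured.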

Other observations

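The 4 pseudogene rows that the naming rule also takes (Mrpl48-ps, Mrpl23-ps1, Mrps36-ps1 and Mrps36-ps2) summed to 26.0, 16.5 and 17.0 FPKM in the CM-RevDKO libraries and to 14.3, 23.1 and 16.8 FPKM in the controls. Their log2 fold changes were 0.30, 0.03, 0.10 and 0.06, and none passed the test (adjusted p 0.607 to 0.964). Pseudogenes resemble their parent genes, so these rows can share reads with Mrpl48, Mrpl23 and Mrps36.

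Lars2, the mitochondrial leucyl-tRNA synthetase gene, stood at 164, 65.8 and 1476 FPKM in the CM-RevDKO libraries and at 864, 1206 and 791 FPKM in the controls (log2 fold change -1.89, adjusted p = 0.389). CM-RevDKO replicates 1 and 2 were low and replicate 3 high, which is the order of mmu-mir-689-2 in the same libraries. Another synthetase, Ears2, stood at 3.08, 1.99 and 2.11 FPKM in the CM-RevDKO libraries and at 3.01, 3.63 and 4.60 FPKM in the controls (-0.49, adjusted p = 0.225). Hsd17b10, a subunit of mitochondrial ribonuclease P, stood at 107, 113 and 116 FPKM in the CM-RevDKO libraries and at 129, 124 and 124 FPKM in the controls (-0.16, adjusted p = 0.357).

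Arntl, a clock gene that the REV-ERB receptors repress, stood at 12.5, 12.95 and 12.9 FPKM in the CM-RevDKO libraries and at 0.29, 0.14 and 0.083 FPKM in the controls (log2 fold change 3.56, adjusted p = 1.7e-05). The groups are thus far apart for this gene, beside the small differences of the mitochondrial ribosomal protein genes.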
